A study of Mus musculus with 36 samples.

Results

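The muscle miRNAs described here are 7 mature miRNAs, mmu-miR-1a-3p, mmu-miR-133a-3p, mmu-miR-133a-5p, mmu-miR-133b-3p, mmu-miR-206-3p, mmu-miR-208b-3p and mmu-miR-499-5p (the species prefix is left out below), chosen by name from the 1915 mature mouse miRNAs of the deposited table. They were read in all 36 libraries of a study of autosomal dominant polycystic kidney disease. Small RNAs in total RNA of whole kidneys were sequenced in Pkd1 and Pkd2 mouse models on a C57BL/6 background, on postnatal days 1, 3 and 7 (P1, P3, P7). The WT groups were Pkd1f/f and Pkd2f/f mice, which carry the floxed alleles without Cre. The KO groups were Pkd1f/f:HoxB7-Cre and Pkd2f/f:HoxB7-Cre mice, in which Cre acts in the collecting duct, so that other kidney cells keep the floxed gene intact. Model, age and genotype form 12 groups of 3 libraries, and controls were littermates of the same age. The labels do not say whether the 3 libraries of a group came from separate animals, so p-values measure only the spread between these libraries. Library totals ran from 12569939 to 32663566 miRNA reads (median 24008082).

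Muscle miRNAs, often called myomiRs, are made mainly in skeletal muscle and heart, where they restrain alternative programmes while muscle cells differentiate and mature. miR-1 and miR-133 are cut from shared primary transcripts, with miR-1 promoting differentiation of muscle cells and miR-133 known for both proliferation and differentiation. miR-206 and miR-133b share a transcript that is used in skeletal muscle, whereas miR-208a, miR-208b and miR-499 lie in introns of myosin heavy chain genes and follow their expression. The kidney itself holds smooth muscle in its vessels, pelvis and capsule, with skeletal muscle lying beside it in the body wall.

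The mature sequences below are shown because the members fall into families by the seed, the stretch that pairs with target messages. RefSeq (GRCm38.p6) gave a sequence for 4 of the 7 members, and that of the heart miRNA miR-208a-3p is set beside its relative miR-208b-3p. miR-1a-3p, miR-133a-3p and miR-133a-5p are named only. Each is written 5′ to 3′, with the seed (bases 2 to 8) in capitals.
miR-206-3p: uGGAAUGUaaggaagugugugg
miR-133b-3p: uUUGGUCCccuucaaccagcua
miR-208b-3p: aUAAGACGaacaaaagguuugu
miR-208a-3p: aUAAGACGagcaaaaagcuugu
miR-499-5p: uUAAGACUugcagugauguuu

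miR-208b-3p and miR-208a-3p shared all 7 seed bases and differed at 3 positions counted from 1 at the 5′ end, A10G, G16A and U18C. The seed of miR-499-5p matched that of miR-208b-3p at 6 of 7 bases, the difference being G8U. miR-133a-3p and miR-133b-3p are near-identical relatives, so part of the reads given to either may belong to the other. miR-1a-3p and miR-133a-3p are each listed under 2 hairpins with the same reads and miR-133a-5p under 2 with 522 and 521 reads, so none of the 3 can be assigned to 1 locus.

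On the GRCm38 annotation, Mir206 (chr1:20679010-20679082, plus strand) and Mir133b (chr1:20682769-20682887, plus strand) lay 3686 bases apart in exons of the long non-coding gene Gm28653. Mir208b (chr14:54975700-54975776, minus strand) lay in an intron of Myh7 and Mir499 (chr2:155622880-155622958, plus strand) in an intron of Myh7b, both of which encode slow-type myosin heavy chains. Mir1a-1 (chr2:180389048-180389124) and Mir133a-2 (chr2:180398379-180398482) lay 9254 bases apart on the plus strand, outside annotated genes.

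The members stood apart in a single library, Pkd1 P1 WT replicate 1, and the comparisons that use it are given with and without it. All 7 had their highest level there. Levels are normalised counts per 1000000 reads (CPM) on 1 scale for the 36 libraries. No length term was used, because mature miRNAs are of nearly equal length. The order and mix of members below are of reads, and whether reads count the molecules of different miRNAs alike was not tested. The summed level of the members in that library was 1795 CPM. The second library, Pkd2 P1 KO replicate 3, held 166 CPM, so that the highest was 10.8-fold over the second and 52.8-fold over the median of 33.98 CPM. That library held 47183 of the members' reads, which was 51.4% of them.

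miR-133a-3p reached 1391 CPM (36553 reads) in that library, against 48.8 and 16.3 CPM in the other replicates of its group. miR-133b-3p was at 223 CPM there, against 4.97 and 1.69. miR-206-3p was at 75.9 CPM, against 2.18 and 0.322. All 3 were highest together in that library, while the other replicates of the group lay within the range of the remaining groups. miR-1a-3p was at 58.2 CPM, against 2.18 and 1.13. miR-208b-3p was at 24.7 CPM, against 0.364 and 0.242. miR-499-5p was at 13.7 CPM, against 0.727 and 0.483. The passenger arm miR-133a-5p was at 9.40 CPM, against 0.969 and 0 reads. The fold of this library over the second highest ran from 4.61 for miR-133a-5p to 13.3 for miR-499-5p.

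**Figure D1:**
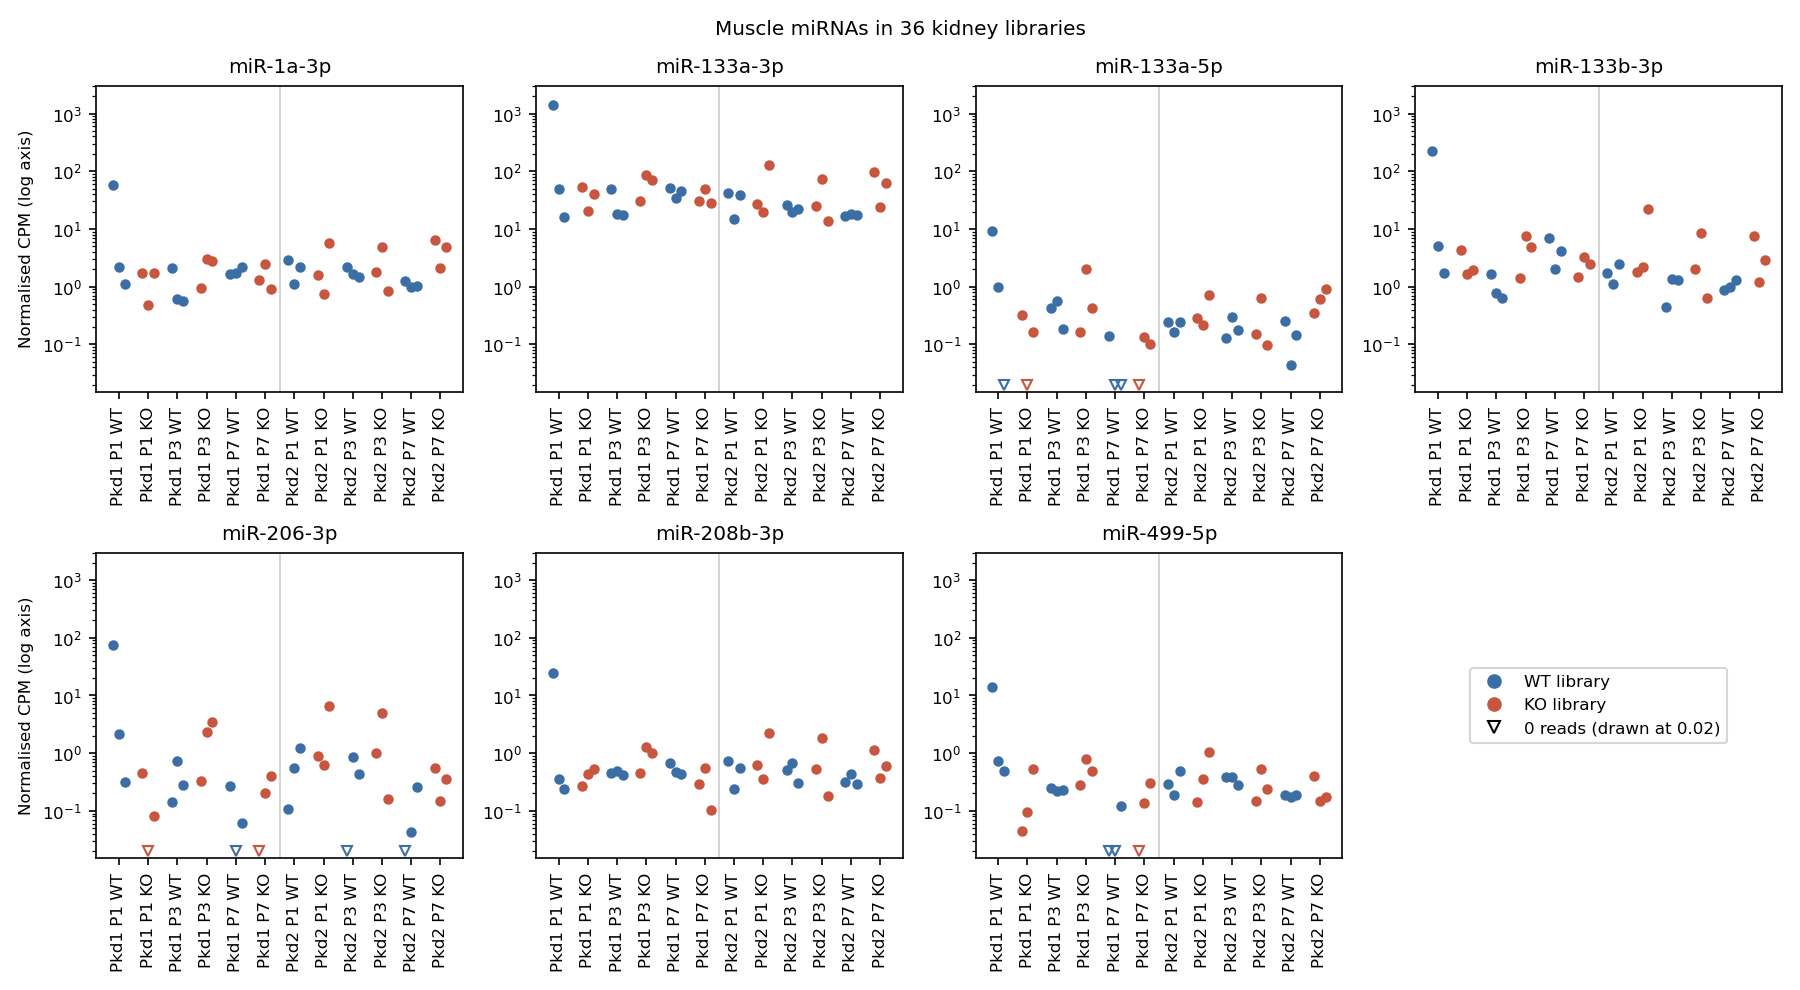
Normalised CPM on a log axis for each of the 7 members, with 1 point per library and 3 libraries per group (open triangles mark libraries with 0 reads). In every panel Pkd1 P1 WT replicate 1 is the highest point, at 1391 CPM for miR-133a-3p and 9.40 CPM for miR-133a-5p.

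Few other miRNAs did the same. Of 775 miRNAs tested over the 36 libraries, 17 (2.19%) were at least 4-fold higher in Pkd1 P1 WT replicate 1 than in any other library. These were the 7 members and 10 miRNAs from the imprinted interval between Dlk1 and Dio3 (chr12:109452823-110281097, GRCm38), whose miRNA clusters are known for expression in the embryo and placenta and in muscle and brain. That interval held 92 of the 775 miRNAs (11.9%) by the RefSeq position of either arm of the hairpin, which was found for 678 of them. The largest of the 10 was miR-495-3p, at 100.1 CPM against at most 11.8 CPM elsewhere. The most abundant was miR-381-3p, at 3250 CPM against at most 617 CPM. Among the 45 miRNAs (5.81%) at least 2-fold higher there, 7 were members and the other 38 lay in the interval. In the remaining 35 libraries, only Pkd2 P1 WT replicate 3 had a miRNA that stood out 4-fold, and it had 1, which was no member.

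**Figure D2:**
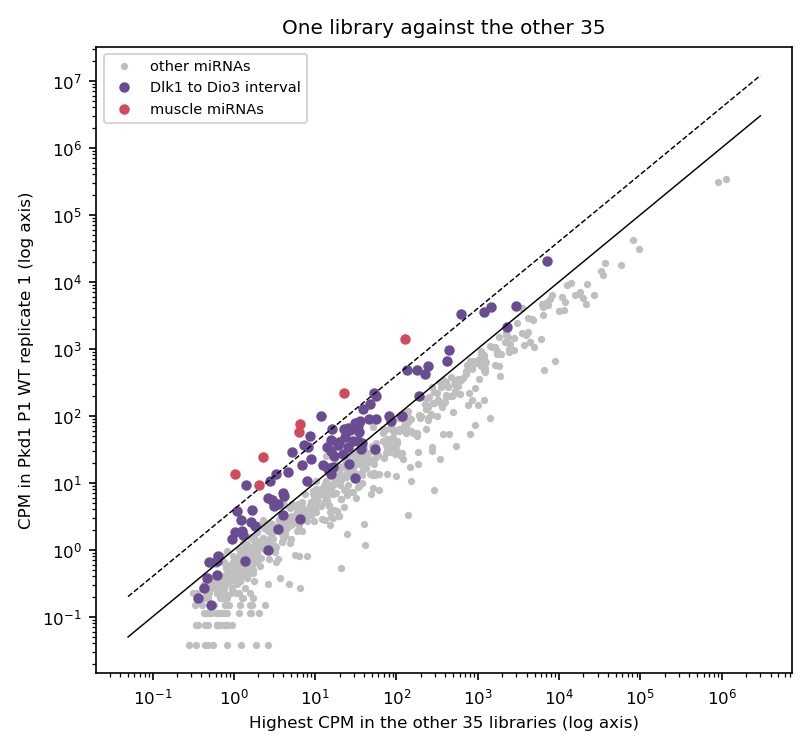
Level of each tested miRNA in Pkd1 P1 WT replicate 1 against its highest level in the other 35 libraries, both in CPM on log axes, for miRNAs with reads in that library. The solid line marks equality and the dashed line 4-fold, and the 7 muscle miRNAs and miRNAs of the Dlk1 to Dio3 interval lie above most others.

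Markers of other cell types were read in the same library. miR-208a-3p, which marks heart, had 1 read there (0.0380 CPM), although its relative miR-208b-3p had 648. The smooth muscle and stroma list, miR-143-3p and miR-145a-5p, was at 31181 CPM in sum, which ranked 26 of 36 libraries. The kidney tubule list of 5 miRNAs, led by miR-192-5p, was at 7046 CPM and ranked 27 (range over libraries 4063 to 28235 CPM). The red cell list ranked highest of the 36 at 9010 CPM, through miR-486a-5p and miR-486b-5p, which muscle also makes and which were at 4053 CPM each against 2609 to 3492 CPM in the other replicates of the group. These 2 hold nearly the same reads (106520 and 106522 in that library), so the sum counts them double, and with miR-486a-5p alone it was 4958 CPM and ranked 2. miR-451a, the defining red cell miRNA, was at 895 CPM there, against 904 and 1070 CPM, and ranked 12 of 36. miR-144-3p of the same list was at 10.5 CPM, against 3.15 and 13.5 CPM, and ranked 34. The endocrine list ranked 2, with miR-375-3p at 376 CPM against 46.3 and 69.9 CPM in the other replicates. Its other miRNA, miR-7a-5p, was at 23.9 CPM, with the other replicates at 7.81 and 8.72 CPM. The liver miRNA miR-122-5p, at 29.4 CPM, lay between the other replicates (5.33 and 42.2 CPM) and ranked 5 of 36, as did the liver list. The neural list ranked 7, the myeloid list 30 and the squamous epithelium list 33. The list of other miRNAs with muscle roles, miR-378a-3p and miR-22-3p, ranked 22. Within the neural list, miR-124-3p was at 2.40 CPM against 0.242 CPM in each other replicate, and ranked 2. The part of any of these in the members' levels was not tested.

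Further arms and relatives of these families were also listed. Of these 11 miRNAs, 2 had no reads and 5 of the rest were highest in Pkd1 P1 WT replicate 1, while 2, miR-1b-3p and miR-208a-3p, had enough reads to be tested. The passenger arms miR-133b-5p and miR-206-5p, cut from the same hairpins as members, had 43 of 57 reads and 21 of 29 reads in that library. miR-208a-3p had 77 reads in all, with 22 in Pkd2 P1 KO replicate 3. miR-1b-3p had 257 reads in all and 3 in Pkd1 P1 WT replicate 1.

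The members were scarce away from that library, and their order was steady only in part. The median level over 36 libraries was 30.6 CPM for miR-133a-3p, 1.86 CPM for miR-133b-3p and 1.71 CPM for miR-1a-3p. It was 0.463 CPM for miR-208b-3p, 0.343 CPM for miR-206-3p, 0.243 CPM for miR-499-5p and 0.201 CPM for miR-133a-5p. miR-133a-3p exceeded miR-133b-3p in 36 of 36 libraries, and miR-1a-3p exceeded miR-208b-3p in 36 of 36. The other neighbours changed places. miR-133b-3p exceeded miR-1a-3p in 26 libraries, miR-208b-3p exceeded miR-206-3p in 19, miR-206-3p exceeded miR-499-5p in 23 and miR-499-5p exceeded miR-133a-5p in 21. Without Pkd1 P1 WT replicate 1 the medians ran in the same order, from 30.2 CPM for miR-133a-3p to 0.185 CPM for miR-133a-5p, and the last 4 counts were 25, 19, 22 and 20 of 35. A level of 3 reads, taken as the floor of detection, was worth 0.0593 to 0.471 CPM depending on the library. miR-206-3p was at or under 3 reads in 11 libraries, miR-133a-5p and miR-499-5p in 10 each and miR-208b-3p in 5, while the remaining members passed 3 reads everywhere. Such floors cover counting error only.

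Replicates of a group differed more in the members than in most miRNAs. The within-group SD of log2 CPM was 1.80 for miR-206-3p and 1.04 for miR-499-5p, with the other members between, against a median of 0.445 over 775 miRNAs. miR-206-3p ranked 4 of 775 in spread. Without Pkd1 P1 WT replicate 1 the members' SD ran from 0.757 for miR-499-5p to 1.496 for miR-206-3p. All 7 were still above the median of all miRNAs, now 0.434. Scarce miRNAs spread more, and the median SD of the 100 miRNAs nearest in level was then 0.666 for miR-499-5p (its own SD 0.757), 0.550 for miR-208b-3p (0.760) and 0.580 for miR-206-3p (1.496), so that the excess was small for miR-499-5p.

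In the Pkd1 model at P1, the comparison of KO with WT asks what loss of Pkd1 changes soon after birth. KO levels were lower than the WT mean for all 7 members, and no member passed an adjusted p of 0.05. In KO, miR-133a-3p was at 52.9, 20.4 and 40.7 CPM, inside the WT range of 16.3 to 1391. miR-206-3p was at 0.455, 0 and 0.0813 CPM in KO. No member had KO and WT libraries that failed to overlap, where 18.1% of all 706 miRNAs did, and 0% of miRNAs passed the adjusted p. The median log2 fold change of the members was -4.34, against -0.03 over all miRNAs, and the smallest p was that of miR-206-3p (-7.06, SE 1.70, edgeR adjusted p = 0.334). All 7 members had an unadjusted p under 0.05, as did 8.36% of all miRNAs, and DESeq2 called 4 of the 5 members to which it gave a p, beside 1.52% of all miRNAs. The size of these values came from 1 WT library. Without Pkd1 P1 WT replicate 1 the members' median was -0.25, with 2 higher and 5 lower. In that fit 0 members were called, as was so for 0% of all 698 miRNAs. An unadjusted p under 0.05 was reached by 1 member, and the share of all miRNAs at that p was not counted. Without Pkd1 P1 WT replicate 3, in contrast, all 7 were called lower, with 1.14% of all miRNAs called. In whole kidney RNA, fewer cells of a type and less of a miRNA per cell cannot be told apart.

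At P3 in the Pkd1 model the members were nearer to each other across genotypes. miR-133a-3p was at 31.0, 85.8 and 69.5 CPM in KO and 49.2, 18.2 and 17.7 CPM in WT. miR-133b-3p was at 1.42, 7.69 and 4.94 CPM in KO and 1.67, 0.777 and 0.647 CPM in WT. miR-206-3p was at 0.332, 2.35 and 3.52 CPM in KO and 0.142, 0.722 and 0.277 CPM in WT. KO replicates 2 and 3 were above all WT libraries in each of these, and replicate 1 was not. All 7 fitted log2 fold changes were above 0 (median 1.02 against 0.02 over all miRNAs) and 0 passed the adjusted p, as was so for 0% of all 706. At an unadjusted p under 0.05 there were 0 members, against 9.07% of all miRNAs. DESeq2 gave an adjusted p to 4 of the 7 members and called 0 of them, against 1.63% of all miRNAs. By DESeq2 1 member had an unadjusted p under 0.05, a share not counted over all miRNAs. The smallest p-values were those of miR-133b-3p (2.13, SE 1.23, edgeR adjusted p = 0.658) and miR-206-3p (2.51, SE 1.45, edgeR adjusted p = 0.658). miR-499-5p, at 0.285, 0.784 and 0.496 CPM in KO and 0.249, 0.222 and 0.231 CPM in WT, was the only member whose groups did not overlap (0.98, SE 1.11, edgeR adjusted p = 0.846), beside 12.3% of all miRNAs. With the P3 groups fitted alone, which leaves out Pkd1 P1 WT replicate 1, 2 members had an unadjusted p under 0.05. In that fit 0% of all 668 miRNAs passed the adjusted p, and the share at the unadjusted p was not counted. Pkd1 P3 KO replicate 2 was the shallowest library, and its members ranked 4 of 36 by CPM and 13 by share of reads.

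At P7 in the Pkd1 model no difference was detected. miR-133a-3p was at 30.2, 49.4 and 27.6 CPM in KO and 50.7, 33.8 and 46.3 CPM in WT, and miR-1a-3p was at 1.33, 2.45 and 0.921 CPM in KO and 1.65, 1.70 and 2.16 CPM in WT. The groups overlapped for both. Of the members 3 were higher and 4 lower, with a median log2 fold change of -0.17 against 0.01 over all miRNAs. None was called, against 0.425% of all miRNAs, and 0 had an unadjusted p under 0.05, against 10.2%. DESeq2 called 0 of the 5 members to which it gave a p, against 2.62% of all miRNAs. No member's groups failed to overlap, where 16.4% of all miRNAs did. The smallest p was that of miR-133b-3p (-0.79, SE 1.23, edgeR adjusted p = 0.914). With the P7 groups fitted alone, which leaves out Pkd1 P1 WT replicate 1, 0 members had an unadjusted p under 0.05. In that fit 0.576% of all 521 miRNAs were called, and the share at the unadjusted p was not counted.

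In the Pkd2 model at P1, all 7 members were higher in KO by the fit, with a median log2 fold change of 1.01 against 0.03 over all miRNAs, and 0 were called, as was so for 0% of all 746. Pkd2 P1 KO replicate 3 held the highest level of each within its comparison. miR-133b-3p was at 1.77, 2.17 and 22.5 CPM in KO and 1.72, 1.12 and 2.46 CPM in WT. miR-206-3p was at 0.884, 0.615 and 6.44 CPM in KO and 0.107, 0.549 and 1.25 CPM in WT. For both, the other KO libraries lay within the WT range. The smallest p was that of miR-133b-3p (2.44, SE 0.96, edgeR adjusted p = 0.886), the 1 member with an unadjusted p under 0.05, against 5.5% of all miRNAs. DESeq2 called 0 members and 0% of all miRNAs. No member's groups failed to overlap, against 13.4% of all miRNAs.

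At P3 in the Pkd2 model 1 KO library again held the highest values. miR-133a-3p was at 24.7, 74.6 and 13.6 CPM in KO and 25.5, 19.3 and 22.2 CPM in WT, and miR-206-3p was at 0.987, 5.04 and 0.158 CPM in KO and 0, 0.844 and 0.430 CPM in WT. Pkd2 P3 KO replicate 2 was above all 3 WT libraries for both, and replicate 3 was below all 3 for miR-133a-3p. Of the members 6 were higher and 1 lower, with a median of 0.66 against -0.05 over all miRNAs. None was called, as was so for 0% of all miRNAs, and 0 had an unadjusted p under 0.05, against 1.47%. DESeq2 called 0 members and 0% of all miRNAs. The smallest p was that of miR-206-3p (2.01, SE 1.16, edgeR adjusted p = 1.00), and no member's groups failed to overlap, against 4.42% of all miRNAs.

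At P7 in the Pkd2 model, miR-1a-3p, miR-133a-3p and miR-133a-5p were higher in every KO library than in every WT library, although none passed the adjusted p. miR-133a-3p was at 98.0, 24.0 and 61.4 CPM in KO and 16.96, 17.8 and 17.8 CPM in WT. miR-1a-3p was at 6.42, 2.11 and 4.94 CPM in KO and 1.26, 0.992 and 1.04 CPM in WT. miR-133a-5p was at 0.344, 0.603 and 0.918 CPM in KO and 0.252, 0.0431 and 0.148 CPM in WT, the WT values resting on 4, 1 and 4 reads. WT libraries were close together for miR-133a-3p and miR-1a-3p and KO libraries were spread out. The log2 fold changes were 2.12 for miR-1a-3p (SE 0.71, edgeR adjusted p = 0.05999), 1.87 for miR-133a-3p (SE 0.71, edgeR adjusted p = 0.0880) and 2.18 for miR-133a-5p (SE 0.77, edgeR adjusted p = 0.0717).

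All 7 members were higher in Pkd2 KO at P7 by the fit, with a median of 1.87 against 0.02 over all miRNAs. None was called, against 12.6% of all 746 miRNAs, and 3 had an unadjusted p under 0.05, against 29%. Groups did not overlap for 3 of 7, beside 25.6% of all miRNAs in either direction and 13.5% with KO higher. The other 4 overlapped. miR-133b-3p was at 7.48, 1.21 and 2.90 CPM in KO and 0.883, 0.992 and 1.29 CPM in WT, and miR-208b-3p at 1.15, 0.377 and 0.6005 CPM in KO and 0.315, 0.431 and 0.296 CPM in WT. miR-206-3p, at 0.544, 0.151 and 0.353 CPM in KO and 0, 0.0431 and 0.259 CPM in WT, had 0 to 19 reads in these libraries. The calls lay close to the threshold. DESeq2 called the 3 non-overlapping members and 21.5% of all miRNAs. With no filter on low counts 2 members and 6.66% of all miRNAs were called, and with the P7 groups fitted alone 2 and 9.09%. Calls were 2 members and 19% of all miRNAs without Pkd2 P7 KO replicate 2, and 1 and 15.4% without replicate 1, which held the highest miR-133a-3p.

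**Figure D3:**
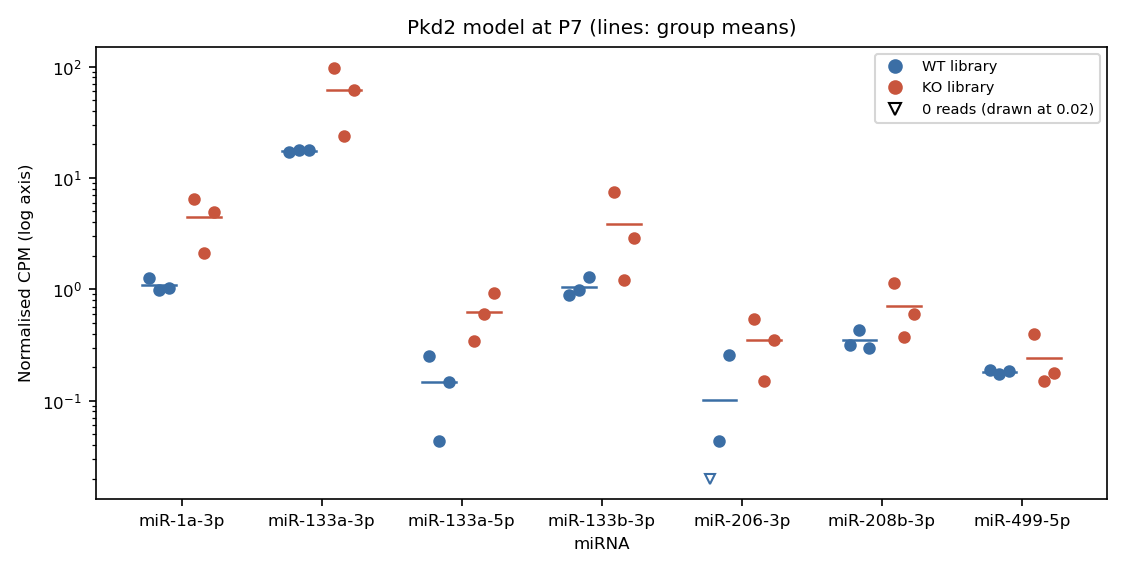
Normalised CPM on a log axis of the 7 members in the 3 WT and 3 KO libraries of the Pkd2 model at P7, with 1 point per library, short lines at group means and an open triangle for 0 reads. miR-133a-3p lies at 16.96 to 17.8 CPM in WT and 24.0 to 98.0 CPM in KO.

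Some other cell type markers moved in the same P7 Pkd2 libraries. The red cell list, which counts double the reads of miR-486, also made in muscle, was at 5319 to 8746 CPM in KO and 3583 to 4652 CPM in WT. The kidney tubule list was at 6048 to 12628 CPM in KO and 14926 to 25400 CPM in WT. Both lists separated the genotypes. The squamous epithelium list, miR-205-5p and miR-203-3p, was at 924, 309 and 1217 CPM in KO and 352 to 361 CPM in WT, and was high in the KO libraries, replicates 1 and 3, that were also higher in miR-133a-3p. The smooth muscle and stroma list was at 39556 to 79252 CPM in KO and 40635 to 66614 CPM in WT. The liver, myeloid, neural and endocrine lists and that of other miRNAs with muscle roles overlapped between the genotypes. The heart marker miR-208a-3p was at 0 in the 3 WT libraries and at most 0.315 CPM in KO. The part of these in the members' values was not tested.

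The change over the first postnatal week in Pkd1 WT kidneys was the 1 comparison in which members passed the adjusted p, and it turned on 1 library. All 7 were called lower at P7 than at P1, against 21.5% of all 706 miRNAs called and 11.2% called lower, and 36.3% of all miRNAs had an unadjusted p under 0.05. miR-499-5p fell from 13.7, 0.727 and 0.483 CPM at P1 to 0, 0 and 0.124 CPM at P7 (log2 fold change -6.12, SE 1.44, edgeR adjusted p = 0.00922). miR-206-3p fell from 75.9, 2.18 and 0.322 CPM to 0.275, 0 and 0.0619 CPM (-7.81, SE 1.96, edgeR adjusted p = 0.0141). These were the 2 members whose ages did not overlap, where 33.3% of all miRNAs did not. The P7 group held 2 and 3 reads of these miRNAs in all, so the fitted values depend on the fit. The pooled P1 to P7 ratio was 119 for miR-499-5p (95% counting interval 32.7 to 984) and 428 for miR-206-3p (146 to 2078), with 361 of 373 and 1995 of 2017 P1 reads from replicate 1. The ratios without that library were 8.68 (1.93 to 79.9) and 10.6 (3.19 to 55.4). Such intervals cover the counting of reads only and leave out the spread between libraries. Of the 22 P1 reads of miR-206-3p left, 18 came from replicate 2.

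The other members overlapped between the ages in Pkd1 WT. miR-133a-5p had 1 read at P7 (log2 fold change -6.38, SE 1.89, edgeR adjusted p = 0.0282), with a pooled P1 to P7 ratio of 162 (95% counting interval 28.9 to 6439), or 11.6 (1.55 to 514) without replicate 1, which held 247 of 255 P1 reads. The 8 P1 reads of miR-133a-5p outside replicate 1 were all in replicate 2. miR-133b-3p changed by -4.01 (SE 1.28, edgeR adjusted p = 0.0374) and miR-208b-3p by -3.94 (SE 1.23, edgeR adjusted p = 0.0340). miR-1a-3p changed by -3.37 (SE 1.12, edgeR adjusted p = 0.0437) and miR-133a-3p by -3.36 (SE 1.11, edgeR adjusted p = 0.0420). At P7 the last of these was at 50.7, 33.8 and 46.3 CPM, within the P1 range of 16.3 to 1391. The median over the members was -4.01, against -0.03 over all miRNAs.

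When Pkd1 P1 WT replicate 1 was left out, 0 of 7 members were called between P7 and P1 in Pkd1 WT, against 14.6% of all miRNAs. An unadjusted p under 0.05 was reached by 2 members, and the share of all miRNAs at that p was not counted. miR-1a-3p, miR-133a-3p, miR-133b-3p and miR-208b-3p were then higher at P7, by log2 fold changes of 0.28, 0.53, 0.52 and 0.86, and the other 3 were lower. miR-499-5p was at -3.03 (SE 1.12, edgeR adjusted p = 0.0815) and miR-206-3p at -3.36 (SE 1.54, edgeR adjusted p = 0.163). Leaving out a P7 WT library also cost calls, with 2 left without Pkd1 P7 WT replicate 1 or replicate 2 and 1 without replicate 3, and fitting these groups alone left 0. Calls over all miRNAs also fell, from 21.5% to 11.6%, 14.3% and 10.2% without these replicates in turn and to 9.65% with the groups alone. With the replicate number as a block 2 members and 15.6% of all miRNAs were called, and DESeq2 called all 5 members to which it gave a p and 25.7% of all miRNAs.

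**Figure D4:**
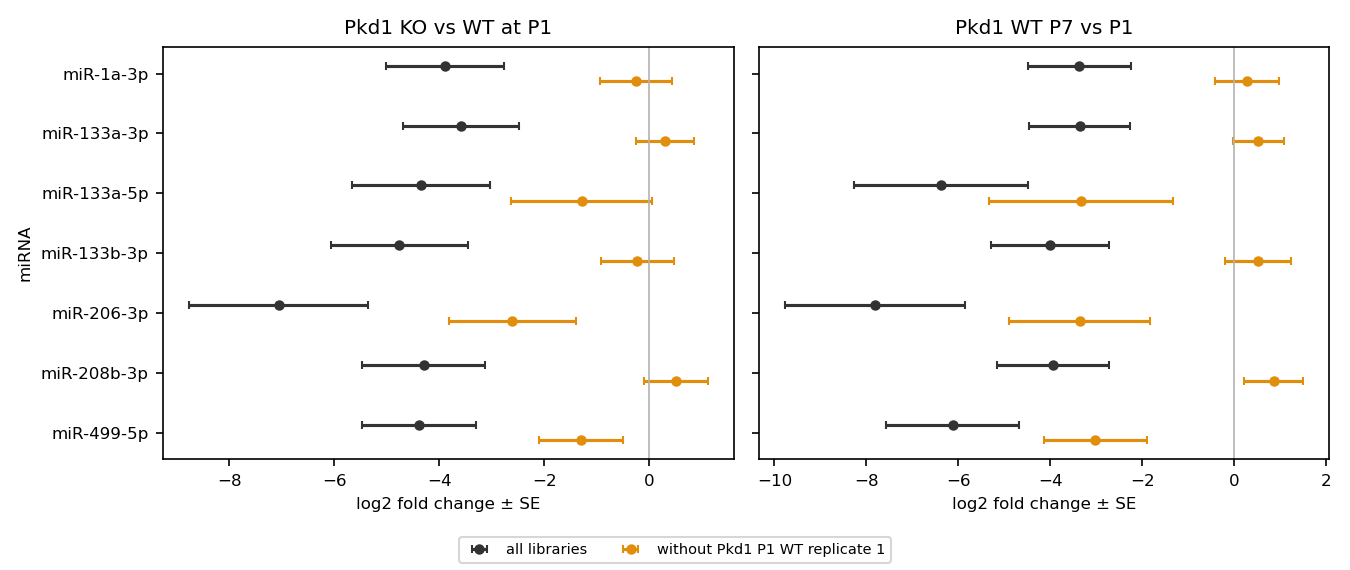
Fitted log2 fold changes with SE for the 7 members in KO against WT at P1 and in WT at P7 against P1, both in the Pkd1 model, with all libraries and without Pkd1 P1 WT replicate 1. The median over members moves from -4.34 to -0.25 in the first comparison and from -4.01 to 0.28 in the second.

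In the other age comparisons no member was called. In Pkd1 KO kidneys 2 members were higher and 5 lower at P7, with a median of -0.05, equal to the -0.05 of all miRNAs, and the smallest p was that of miR-133a-5p (-0.69, SE 2.01, edgeR adjusted p = 0.846), while 17.1% of all miRNAs were called. Groups overlapped for all 7 there, where 47.2% of all miRNAs did not overlap. In Pkd2 WT kidneys all 7 were lower at P7, with a median of -0.91 against -0.06, and 28.3% of all miRNAs were called. miR-206-3p had the smallest p (-2.50, SE 1.55, edgeR adjusted p = 0.246), and miR-499-5p did not overlap (-0.91, SE 0.72, edgeR adjusted p = 0.386), as was so for 50% of all miRNAs. In Pkd2 KO kidneys 2 were higher and 5 lower, with a median of -0.67 against -0.07, and 24.4% of all miRNAs were called. miR-206-3p lay below its P1 range there, at 0.544, 0.151 and 0.353 CPM against 0.884, 0.615 and 6.44 CPM (-2.92, SE 1.22, edgeR adjusted p = 0.0931), where 31.1% of all miRNAs did not overlap. An unadjusted p under 0.05 was reached by 0 members in Pkd1 KO, 0 in Pkd2 WT and 1 in Pkd2 KO. The shares of all miRNAs were 31.6%, 39.8% and 37.8%. DESeq2 called 0 members in each, against 19.6%, 31.8% and 28.4% of all miRNAs.

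When libraries were scaled by their totals only, the median of all miRNAs between P7 and P1 moved to -0.68 and -1.16 in Pkd1 WT and KO and to -0.78 and -0.97 in Pkd2 WT and KO. On that scale miR-1a-3p turned lower at P7 in KO of both models, miR-206-3p in Pkd1 KO and miR-133a-5p in Pkd2 KO, so that all 7 members were lower at P7 in all 4 comparisons, as most miRNAs then were by their median. The members' medians were then -1.13 in Pkd1 KO, -1.61 in Pkd2 WT and -1.60 in Pkd2 KO. With DESeq2 size factors miR-133a-3p in Pkd2 KO moved from -0.03 to 0.04. The directions of KO against WT did not change under either scaling.

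The differences between comparisons were tested as interactions, and no member was called in any of them. Between P1 and P7 the KO effect differed most in the Pkd1 model for miR-206-3p (P7 minus P1 8.18, SE 3.13, edgeR adjusted p = 0.369), with 0.142% of all miRNAs called. An unadjusted p under 0.05 was reached by 5 members and 12% of all miRNAs. With Pkd1 P1 WT replicate 1 left out that value was 3.73 (SE 2.17, edgeR adjusted p = 0.441) and the members' median moved from 3.96 to 0.08. In that fit 0 members were called, against 0.86% of all 698 miRNAs. At an unadjusted p under 0.05 there were 0 members, and the share of all miRNAs was not counted. In the Pkd2 model the smallest p was that of miR-1a-3p (1.61, SE 0.96, edgeR adjusted p = 0.423), with 0.536% called, and 0 members and 16.9% of all miRNAs at an unadjusted p under 0.05.

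The KO effect in Pkd1 minus that in Pkd2 at P1 was below 0 for all 7 members, with an unadjusted p under 0.05 for 7, against 6.32% of all 775 miRNAs, and 0% called. For miR-206-3p it was -9.22 (SE 2.09, edgeR adjusted p = 0.0552), and DESeq2 called all 7 and 1.03% of all miRNAs. That contrast sets the highest WT library against a group holding the second highest library, a KO library. Without Pkd1 P1 WT replicate 1 the value for miR-206-3p was -4.74 (SE 1.85, edgeR adjusted p = 0.514), and the members' median moved from -5.38 to -2.01. In that fit 0 members and 0% of all 775 miRNAs were called. An unadjusted p under 0.05 was reached by 1 member, a share not counted over all miRNAs. Removal of other libraries of these groups raised the count, to 7 without Pkd1 P1 WT replicate 3, 4 without Pkd1 P1 WT replicate 2, 3 without Pkd2 P1 KO replicate 1 and 2 without Pkd2 P1 KO replicate 2, beside 1.03%, 0.645%, 0.389% and 0.387% of all miRNAs. At P3 the smallest p was that of miR-499-5p (1.13, SE 1.33, edgeR adjusted p = 1.00), and at P7 that of miR-1a-3p (-2.26, SE 1.39, edgeR adjusted p = 0.493), with 0% and 0.387% of all miRNAs called. DESeq2 called 0 members at either age, against 0% of all miRNAs at P3 and 0.516% at P7. By edgeR 0 had an unadjusted p under 0.05, against 5.03% of all miRNAs at P3 and 12% at P7.

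The members varied together across libraries. By rho over the 36 libraries miR-206-3p was looser than the rest, but not in every setting given below. Among the 5 members with a median of at least 10 reads (miR-1a-3p, miR-133a-3p, miR-133b-3p, miR-206-3p and miR-208b-3p), 10 pairs were correlated over 36 libraries. Pearson's r of log2 CPM ran from 0.655 to 0.937 and Spearman's rho from 0.367 to 0.866. All 10 pairs had an adjusted p under 0.05 by both (permutation test, two-sided, adjusted over 10 pairs, largest adjusted p 0.0285). The test shuffled the 36 libraries without regard to their groups. For deviations from group means rho ran from 0.493 to 0.944, and all 10 pairs passed (largest permutation adjusted p 0.00251 for rho). miR-133a-3p and miR-133b-3p were closest, with r = 0.937 and rho = 0.866 (permutation p = 1e-05 for each, the smallest that 100000 resamples can give, adjusted 2.5e-05 for rho). miR-1a-3p and miR-206-3p were the loosest, with r = 0.655 and rho = 0.367 (permutation adjusted p = 0.000190 and 0.0285). Over 623 candidate miRNAs outside the families, the 95th percentile of rho was 0.490 with miR-1a-3p, 0.542 with miR-133a-3p and 0.527 with miR-206-3p. The rho of miR-206-3p with miR-1a-3p, miR-133a-3p (0.386) and miR-208b-3p (0.436) was below that 0.527. Its rho with miR-133b-3p (0.556) was above it. For deviations from group means that rho was 0.824, above the 0.774 of miR-1a-3p with miR-133b-3p. Its other pairs were then at 0.493 to 0.589. With library totals alone the pairs of miR-206-3p ran from 0.666 to 0.740, beside 0.675 for miR-133b-3p with miR-208b-3p. Without Pkd1 P1 WT replicate 1, r ran from 0.423 to 0.875 and 8 of the 10 pairs passed by rho. Without the 2 libraries farthest from the median, r ran from 0.380 to 0.850. Within the Pkd1 model 5 pairs passed by rho and within the Pkd2 model 7. The points share depth and scaling, and miR-133a-3p and miR-133b-3p may share reads.

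The mix of members differed between the libraries in which they were high. Per 100 reads of miR-133a-3p, Pkd1 P1 WT replicate 1 held 16.0 reads of miR-133b-3p, 5.46 of miR-206-3p and 4.19 of miR-1a-3p. Pkd2 P1 KO replicate 3 held 17.7, 5.06 and 4.56. Pkd2 P7 KO replicate 1, the next highest library, held 7.63, 0.555 and 6.55. The P1 libraries just named were thus alike in their mix, and the P7 library named held less miR-133b-3p and miR-206-3p for its miR-133a-3p. This does not hold for each age as a whole. At P1 the ratio of miR-133b-3p ran from 4.80% to 16.0% in Pkd1 and from 4.16% to 17.7% in Pkd2. At P7 it ran from 4.88% to 13.6% in Pkd1 and from 4.72% to 7.63% in Pkd2. Over all libraries the ratio of miR-206-3p was at most 1.48% in Pkd1 and 1.46% in Pkd2 at P7. Its median was 1.42% at P1 (0.861% without Pkd1 P1 WT replicate 1), 2.15% at P3 and 0.274% at P7 in the Pkd1 model, and 3.30%, 2.96% and 0.565% in the Pkd2 model. These are descriptions with no test, the P7 values rest on 0 to 19 reads of miR-206-3p a library, and ages overlapped in both models. miR-1a-3p, cut from the same transcripts as miR-133a-3p, ran from 2.33% to 8.81% over the 36 libraries (median 5.01%, or 5.05% without that library).

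**Figure D5:**
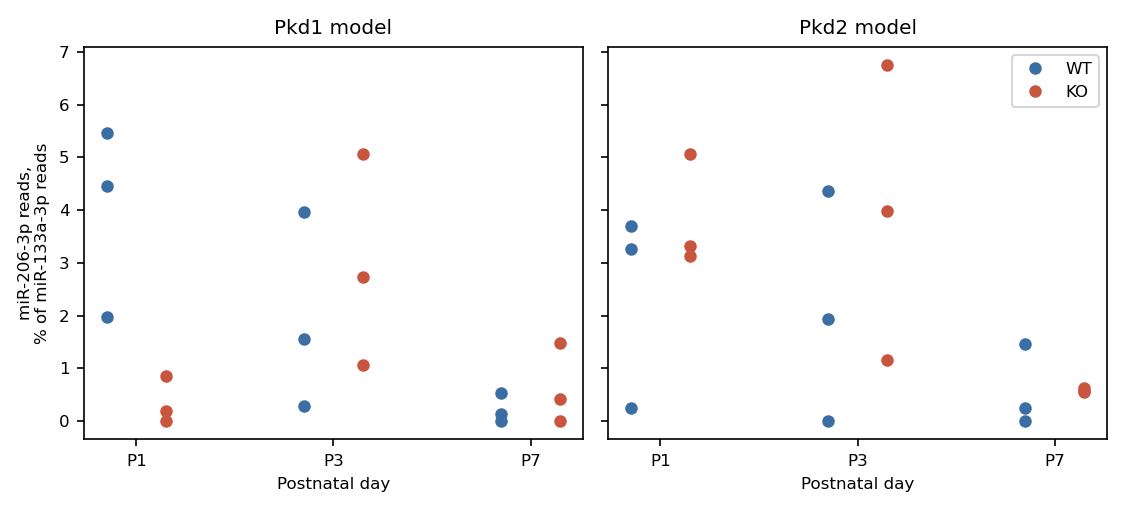
Reads of miR-206-3p as a percent of the reads of miR-133a-3p in each library, by age and genotype, for the Pkd1 and Pkd2 models. The median is 1.42% at P1 and 0.274% at P7 in Pkd1, and 3.30% and 0.565% in Pkd2.

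The miRNAs outside the families whose pattern over the 36 libraries was most like that of a member came mainly from the imprinted interval. By Spearman's rho among 623 candidates with a median of at least 10 reads, those nearest miR-133a-3p were miR-493-5p (0.690), miR-668-3p (0.670) and miR-666-5p (0.667). Those nearest miR-1a-3p were miR-376c-3p (0.656), miR-543-3p (0.648) and miR-434-5p (0.636). Those nearest miR-206-3p were miR-666-3p (0.705), miR-370-3p (0.689) and the liver miRNA miR-122-5p (0.686). By the RefSeq position of either arm 8 of these 9 lay between Dlk1 and Dio3, the exception being miR-122-5p. The 9 values of rho were 0.604 to 0.679 without Pkd1 P1 WT replicate 1, and the points share depth and scaling.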

How the data were processed

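Per the labels and the study's methods, kidney total RNA was extracted with Trizol and sequenced, the authors trimmed adaptors, dropped reads of 17 bases or fewer and then used miRDeep2 (version not given in the sources used here) to count the rest against miRBase release 21 and the mouse genome mm10. The submitters' processing notes also name CASAVA 1.8.2 and HTSeq. The deposited values are raw counts per mature miRNA and hairpin, in 2061 rows for 1915 mature miRNAs, and a miRNA listed more than once was taken from its row of highest total. The members and all lists were chosen with earlier results of these data known.

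Counts were tested with the quasi-likelihood F-test of edgeR 4.0.16 (R 4.3.3), with TMM factors, 1 term per group and Benjamini-Hochberg adjustment over all miRNAs that reached 10 counts in 3 or more of the fitted libraries. The 18 libraries of each model were fitted together (706 and 746 miRNAs), and the 36 libraries together for CPM and for differences between models (775 miRNAs). A member was called at an adjusted p under 0.05. The SE is the size of the log2 fold change divided by the square root of F. Correlations used log2 CPM with a prior count of 2. Fold changes with SE and adjusted p are given for members that were called, did not overlap or had the smallest p. Alternatives were library totals alone, DESeq2 size factors, no filter, robust fitting, a replicate block, DESeq2 1.42.0, the compared groups alone and each library left out. On simulated data with 200 changed miRNAs, 93% of those changed by a log2 of 2 were recovered in Pkd1 KO against WT at P7 (706 miRNAs). Every simulated miRNA had the median spread of all miRNAs. The members spread more than that, so this share does not hold for them. The targeted genes are not miRNAs, so the genotype labels were not checked against them. Same-numbered libraries deviated together (r over 0.1) in 7 of 18 pairs, with r from -0.489 to 0.456, so replicate numbers were not taken to pair libraries. Positions came from GENCODE M21.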

Additional observations from a re-analysis of the deposited data

How the results depend on the processing

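Over the comparisons, the correlations and the spread, 204 counts recomputed under another setting stayed within 1.5 times of the reported count and 21 did not. For Pkd1 WT at P7 against P1 the 7 members called became 2 with the replicate block and 0 with the compared groups alone, and 0 to 7 when a library was left out, with 0 without Pkd1 P1 WT replicate 1. Over the same left-out libraries the log2 fold change ran from -3.92 to 0.28 for miR-1a-3p, -3.93 to 0.53 for miR-133a-3p, -4.58 to 0.52 for miR-133b-3p and -4.50 to 0.86 for miR-208b-3p, the positive values being without that library. In Pkd1 KO at P7 against P1, miR-133a-5p ran from -1.25 to 0.21, the latter without Pkd1 P1 KO replicate 1. For Pkd1 KO against WT at P1 the count of 0 became 4 with DESeq2 and 0 to 7 when a library was left out, 7 being without Pkd1 P1 WT replicate 3. For Pkd2 KO against WT at P7 the count of 0 became 2 with no filter, 3 with DESeq2 and 2 with the compared groups alone, and was 0 to 2 when a library was left out, with 1 without Pkd2 P7 KO replicate 1 and 2 without replicate 2. For Pkd2 KO at P7 against P1 it became 2 with library totals alone, where 35.7% of all miRNAs were called. For the KO effect in Pkd1 minus Pkd2 at P1 it became 3 with DESeq2 size factors, 4 with no filter and 7 with DESeq2. The shares of all miRNAs called in these were 0.516%, 0.314% and 1.03%. When a library was left out the count was 0 to 7. It was 7 and 4 without Pkd1 P1 WT replicates 3 and 2, and 3 and 2 without Pkd2 P1 KO replicates 1 and 2. Fitting the compared groups alone tests fewer libraries, and leaving a library out removes samples. Other causes were not tested. The replicate block changed the count in 1 of 15 comparisons, the one above. DESeq2 gave no p to 2 of 7 members in each Pkd1 comparison, and no adjusted p to 1 more in Pkd1 KO against WT at P3. Depth limits miR-206-3p, miR-133a-5p, miR-499-5p and miR-208b-3p, which were at or under 3 reads in 5 to 11 libraries. The correlations, spread, read ratios, order and mix without Pkd1 P1 WT replicate 1 were added after the data were seen.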
